A study of Mus musculus with 6 samples.

Results

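The pentose phosphate and hexosamine branches leave glycolysis at its upper steps, and 10 of their enzymes were chosen by name: G6pdx, Pgls and Pgd of the oxidative pentose phosphate steps, Taldo1, Tkt and Rpia of the non-oxidative steps, and Gfpt1, Gfpt2, Uap1 and Ogt of the hexosamine branch. Of these, 9 were measured among 18193 genes, and G6pdx is not analysed here. Each gene is represented by its brightest probe set (the highest mean over all arrays), and its other probe sets are given beside it. The samples were ventricular tissue of mice aged 8 weeks: 3 samples came from wild-type mice and 3 from transgenic mice, called caAkt, in which a constantly active form of the kinase Akt is made only in the heart. The labels name no promoter, strain or sex, and do not say that each array is a separate heart, so the p-values rest on a spread between 6 samples that may be only technical.

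The oxidative pentose phosphate steps turn glucose 6-phosphate into ribulose 5-phosphate and make NADPH, the cell's reducing agent for antioxidant defence and lipid synthesis. The non-oxidative steps interconvert pentoses with glycolytic sugars and can run in either direction, to supply ribose for nucleotides or to return carbon to glycolysis. The hexosamine branch starts from fructose 6-phosphate and ends in UDP-GlcNAc, the donor for glycans, hyaluronan and the single O-GlcNAc sugar that the Ogt enzyme puts on intracellular proteins. In heart muscle both branches carry little carbon next to glycolysis, and O-GlcNAc on proteins is known to rise in hypertrophy.

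In caAkt hearts 5 of the 9 measured genes were higher and 0 were lower at an adjusted p under 0.05 (limma, Benjamini-Hochberg over all genes). Pgd had the largest difference, 1.52-fold, followed by Gfpt1 (1.38-fold), Uap1 (1.32-fold), Taldo1 (1.19-fold) and Pgls (1.16-fold). Over all genes, 28.5% were called in either direction, 16.1% higher and 12.4% lower, and the median log2 difference was 0.24 for the 9 genes and -0.04 for all genes. Leaving out 1 array changed the count: when wild-type replicate 2 was dropped, or caAkt replicate 2, Pgd and Gfpt1 alone were called, and when caAkt replicate 3 was dropped, 3 genes were. Without any of the other 3 arrays the count was 4, and Pgd and Gfpt1 were called each time.

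The region just before the start of a gene is where general and inducible factors bind, so the 250 bases before the RefSeq start (GRCm38.p6, read in the direction of the gene) were searched on both strands, and those of the 4 genes with the larger rises are shown. Capitals mark CCAAT, or ATTGG where it lies on the other strand. Pgd, on the minus strand, is shown from chr4:149166706-149166955, Gfpt1, on the plus strand, from chr6:87042596-87042845, Uap1, on the minus strand, from chr1:170174965-170175214 and Taldo1, on the plus strand, from chr7:141391910-141392159.
Pgd: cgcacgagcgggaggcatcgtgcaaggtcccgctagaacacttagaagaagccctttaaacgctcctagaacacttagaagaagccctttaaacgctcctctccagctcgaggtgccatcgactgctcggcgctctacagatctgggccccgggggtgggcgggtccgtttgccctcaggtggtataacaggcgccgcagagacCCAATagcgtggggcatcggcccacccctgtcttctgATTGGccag
Gfpt1: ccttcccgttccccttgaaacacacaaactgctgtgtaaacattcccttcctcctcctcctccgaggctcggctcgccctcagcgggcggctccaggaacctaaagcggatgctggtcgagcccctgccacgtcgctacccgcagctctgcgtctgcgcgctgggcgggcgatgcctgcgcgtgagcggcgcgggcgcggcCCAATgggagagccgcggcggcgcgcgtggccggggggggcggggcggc
Uap1: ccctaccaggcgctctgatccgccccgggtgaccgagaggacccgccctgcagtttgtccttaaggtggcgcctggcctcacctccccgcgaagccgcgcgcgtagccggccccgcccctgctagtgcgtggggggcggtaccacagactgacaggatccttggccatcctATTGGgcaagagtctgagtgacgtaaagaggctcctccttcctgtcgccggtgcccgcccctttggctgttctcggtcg
Taldo1: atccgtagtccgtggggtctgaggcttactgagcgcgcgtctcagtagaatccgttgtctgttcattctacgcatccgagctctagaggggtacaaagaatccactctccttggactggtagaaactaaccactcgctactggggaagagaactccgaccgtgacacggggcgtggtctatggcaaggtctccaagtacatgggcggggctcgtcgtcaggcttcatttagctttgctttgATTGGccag
The windows of Pgd and Taldo1 end in the same run, ATTGG followed by ccag, which puts the box 9 to 5 bases before both starts. Pgd has a further CCAAT 46 to 42 bases before its start, that of Gfpt1 lies 49 to 45 bases before and that of Uap1 79 to 75 bases before. CCAAT was found in 5 of the 9 measured genes (these 4 and Gfpt2) and in 33.8% of 32851 windows of the same length. The 32851 include windows of non-coding genes. They leave out a chromosome that holds none of the 9 genes, and windows not stored at full length. The GC box GGGCGG was found in 9 of 9, and in 32.7% of the 32851.

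The same windows were searched for elements of stress factors. The core of the antioxidant response element, TGACNNNGC, which NRF2 binds, was found in 0 of the 9 windows and in 10.2% of the 32851. The E-box CACGTG was found in 0 of 9 and 6.02%, the ATF4 and C/EBP composite element TGATGNAAT in 0 of 9 and 0.816%, the XBP1 element TGACGTGG in 0 of 9 and 0.563%, and the ER stress response element (CCAAT, 9 bases, CCACG) in 0 of 9 and 0.113%. Any match to the ER stress element also counts as a CCAAT match. These letters are not in these windows, and sequence farther away was not searched.

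The 6 arrays had RMA log2 medians of 6.77 to 6.80 and highest values of 15.32 to 15.45, so the 9 genes, at 8.48 to 11.65, lay well below the top of the scale. Akt1, at its probe set with the largest difference, went from 9.92 ± 0.22 to 15.11 ± 0.04 (SD, n = 3 a group). Its other probe sets gave log2 differences of -0.29 (called lower, adjusted p = 0.0281, limma over all probe sets), and of -0.21 and 0.08, neither called. Cardiomyocyte markers were bright in both groups, but 4 of 10 fell (Tnni3, Myl3, Pln and Ryr2, by 0.31 to 0.41 on the log2 scale) and 0 rose. Myh6 stood at 15.22 and 15.02 and was not called (adjusted p = 0.0645), and the summed linear signal of the 10 was 286391 to 315327 units in wild-type and 274055 to 278821 in caAkt arrays. Some of these markers lay at or near the top of the scale, such as Actc1 at 15.45 on each caAkt array. A change may not show in full there, so the sum is a weak measure of cardiomyocyte content. Markers of other cell types moved with the genotype too: 12 of 13 macrophage markers rose and 1 (Cd163) fell, with sums of 7755 to 8971 in wild-type and 18959 to 23805 in caAkt arrays, and 8 of 10 fibroblast markers rose, with sums of 30356 to 37702 and 83160 to 92277. Of the endothelial markers 3 of 9 fell and 0 rose (10122 to 10683 against 8304 to 9031). Of the smooth muscle and pericyte markers 2 of 7 fell (Kcnj8, -0.70, and Abcc9, -1.69, on the log2 scale). In the same list 1 rose (Tagln, 0.46) and 4 were not called. Of the 4 lymphocyte markers 0 were called, and 1 of 2 red cell and 1 of 2 adipocyte markers fell. No marker lay at or below 4.48 on all arrays, the level taken from Y-linked genes as that of a dim probe set. Hba-a1, 1 of the 2 red cell markers, stood around that level, at 4.30 to 4.78. The part of these cell types in the values below was not tested, and in ventricular tissue fewer cells of a type and less RNA per cell cannot be told apart.

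Pgd encodes 6-phosphogluconate dehydrogenase, which makes NADPH and ribulose 5-phosphate. It stood at 10.01, 10.01 and 9.83 in wild-type replicates 1 to 3 and at 10.71, 10.52 and 10.42 in caAkt replicates 1 to 3 (RMA log2 values). The lowest caAkt value lay above the highest wild-type value, as it did for caAkt in 21.4% of all genes. The log2 difference was 0.60 ± 0.09 (SE, adjusted p = 0.00113, limma), and 9.47% of all genes had a larger absolute difference. Its 4 probe sets gave 0.55 to 0.87, and each was called when all 45037 probe sets were fitted as rows, where 22.6% of those with 1 gene symbol were called. The call held in all 12 alternatives that gave a value (log2 0.52 to 0.67, adjusted p 0.000248 to 0.00649), and Pgd has no plain probe set for the remaining one: 3 of its probe sets, like the brightest of Tkt, are of the _x_at kind, whose probes may match other transcripts.

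Pgls encodes 6-phosphogluconolactonase, the step before Pgd. It stood at 10.51, 10.61 and 10.63 in wild-type and at 10.79, 10.79 and 10.82 in caAkt replicates. The groups did not overlap, but the difference was small, 0.21 ± 0.07 on the log2 scale (adjusted p = 0.0417, limma). Of the fits that leave out an array, only that without wild-type replicate 3 kept the call. Dropping any of wild-type replicates 1 and 2 and caAkt replicates 1 to 3 gave an adjusted p of 0.0810 to 0.116, and after a renewed quantile normalization the difference was 0.14 (adjusted p = 0.222). With all probe sets as rows, Pgls was not called (adjusted p = 0.0634).

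Taldo1 encodes transaldolase, which moves 3-carbon units between sugars. It stood at 11.37, 11.33 and 11.27 in wild-type and at 11.65, 11.58 and 11.52 in caAkt replicates. All caAkt values lay above all wild-type values, with a log2 difference of 0.25 ± 0.07 (adjusted p = 0.0229, limma) at its only probe set. The call was lost when wild-type replicate 2 or 3 was dropped (adjusted p = 0.0685 and 0.0604), and likewise with caAkt replicate 1 or 2 (0.0759 and 0.0589), while the difference stayed at 0.22 to 0.29.

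Tkt encodes transketolase, which needs thiamine diphosphate and moves 2-carbon units. It stood at 10.74, 10.60 and 10.53 in wild-type and at 10.55, 10.55 and 10.40 in caAkt replicates. The groups overlapped, and the log2 difference of -0.12 ± 0.08 was not called (adjusted p = 0.300, 95% interval -0.31 to 0.06). Its other probe sets gave 0.03 and -0.16, so no direction was common to the 3. The interval leaves room for a fall of the size seen for the rise of Taldo1, but not for a rise of that size.

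Rpia encodes ribose 5-phosphate isomerase, which supplies the ribose of nucleotides. It stood at 9.81, 9.88 and 9.90 in wild-type and at 9.65, 9.81 and 9.82 in caAkt replicates. The groups overlapped by the tie of caAkt replicate 2 with wild-type replicate 1 and by caAkt replicate 3. The log2 difference of -0.10 ± 0.07 was not called (adjusted p = 0.349, 95% interval -0.27 to 0.07) and was called in 0 of 13 alternatives.

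**Figure D1:**
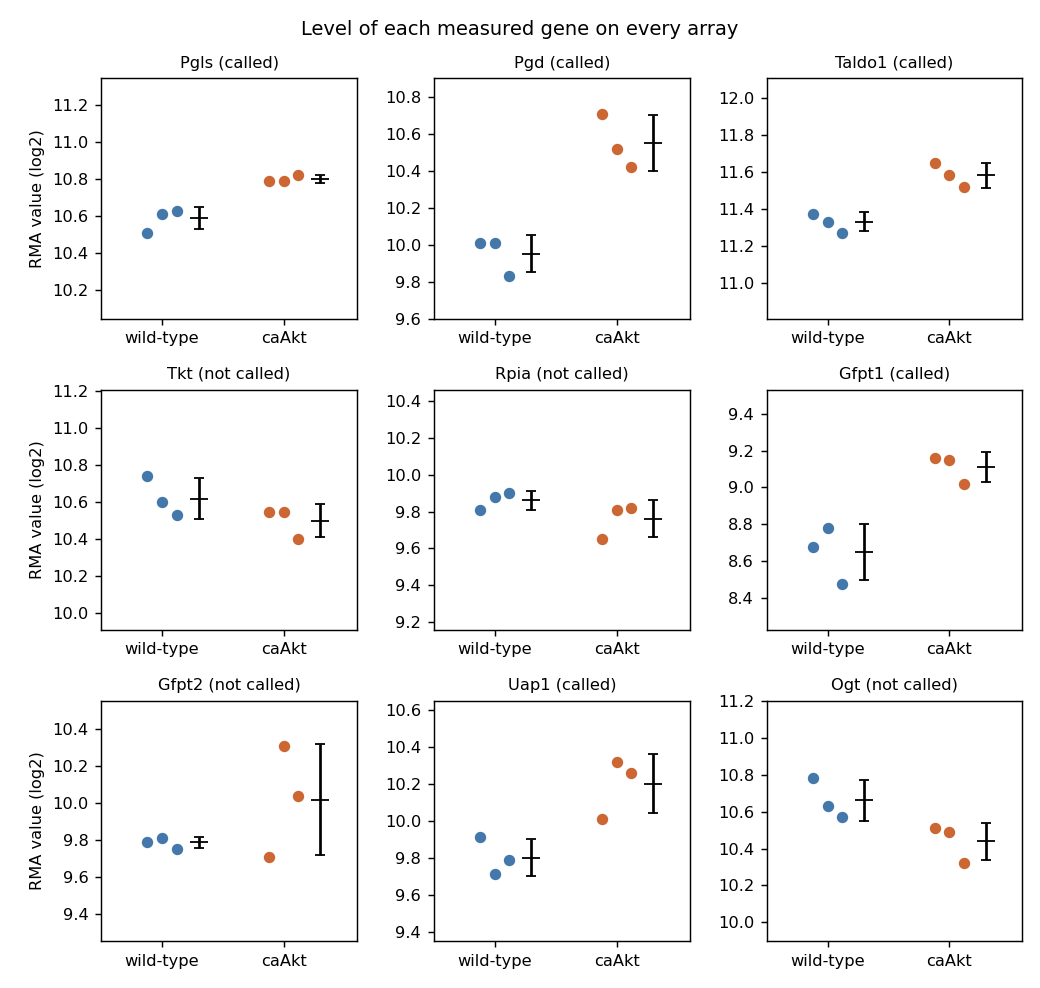
RMA log2 value (vertical axis, a span of 1.3 log2 units in each panel) of the 9 measured genes on the 3 wild-type (blue) and 3 caAkt (orange) arrays, replicates 1 to 3 from left to right, with mean and SD in black. The caAkt values of Pgls, Pgd, Taldo1, Gfpt1 and Uap1 lie above all wild-type values and those of Ogt below, while Tkt, Rpia and Gfpt2 overlap.

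The hexosamine branch is entered through glutamine-fructose-6-phosphate amidotransferase, its rate-limiting step, which exists in forms encoded by Gfpt1 and Gfpt2. Gfpt1 stood at 8.68, 8.78 and 8.48 in wild-type and at 9.16, 9.15 and 9.02 in caAkt replicates. The groups did not overlap, and the log2 difference was 0.47 ± 0.09 (adjusted p = 0.00395, limma). The call held without each array in turn (0.39 to 0.53). Of its other 5 probe sets, the next brightest gave 0.21 and was not called (adjusted p = 0.169), and 4 lay at means of 3.68 to 4.29, around the Y-linked signal of 3.87 to 4.57, with differences of -0.19 to 0.21. The mean of all 6, which these dim probe sets enter, was 0.11 and not called (adjusted p = 0.183).

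Gfpt2 stood at 9.79, 9.81 and 9.75 in wild-type and at 9.71, 10.31 and 10.04 in caAkt replicates. The wild-type values were tight, whereas caAkt replicate 1 lay below all of them and caAkt replicates 2 and 3 above all of them. The log2 difference of 0.24 ± 0.13 was not called (adjusted p = 0.218, 95% interval -0.06 to 0.54). Without caAkt replicate 1 it was 0.39 and called (adjusted p = 0.0228), and without caAkt replicate 2 it was 0.09 (adjusted p = 0.595). Over caAkt replicates 1 to 3, the summed smooth muscle and pericyte markers were 15567, 20285 and 21663 linear units, the fibroblast markers 83160, 84542 and 92277 and the macrophage markers 23805, 22065 and 18959. Replicate 1 was thus lowest in the smooth muscle and fibroblast sums and highest in the macrophage sum. Gfpt2 was highest in caAkt replicate 2, whereas the smooth muscle and fibroblast sums were highest in replicate 3. Within the smooth muscle sum, Acta2 stood at 12.14, 12.94 and 13.13 in caAkt replicates 1 to 3 (log2). The part of these cells in the Gfpt2 values was not tested.

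Whether the forms differed in their change was tested on the difference of their log2 values within each array. Gfpt2 minus Gfpt1 was 1.11, 1.04 and 1.27 in wild-type and 0.55, 1.16 and 1.02 in caAkt replicates. The groups overlapped, and the shift of -0.23 gave an exact two-sided permutation p = 0.4, where 0.1 is the smallest that 3 against 3 arrays allow. It changed with single arrays, to -0.05 (p = 0.7) without caAkt replicate 1 and -0.36 (p = 0.1, the smallest possible) without caAkt replicate 2 in the same exact test, and it turned to 0.12 with the mean of probe sets. A difference between the changes of the forms was thus not shown, although Gfpt1 passed the threshold and Gfpt2 did not.

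Uap1 encodes the pyrophosphorylase that makes UDP-GlcNAc in the last step. It stood at 9.91, 9.71 and 9.79 in wild-type and at 10.01, 10.32 and 10.26 in caAkt replicates. The groups did not overlap, though caAkt replicate 1 came close to wild-type replicate 1. The log2 difference was 0.40 ± 0.10 (adjusted p = 0.0130, limma), and its other 4 probe sets gave 0.13 to 0.24, none called. The call was lost on dropping wild-type replicate 2, caAkt replicate 2 or caAkt replicate 3 (adjusted p = 0.0566, 0.0559 and 0.0538), and the mean of all 5 probe sets gave 0.24 (adjusted p = 0.0520).

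Ogt encodes the transferase that uses UDP-GlcNAc to modify serines and threonines of intracellular proteins. It stood at 10.78, 10.63 and 10.57 in wild-type and at 10.51, 10.49 and 10.32 in caAkt replicates. All caAkt values lay below all wild-type values, as in 21.1% of all genes, but the log2 difference of -0.22 ± 0.08 was not called (adjusted p = 0.0880, 95% interval -0.41 to -0.03). All 5 probe sets had negative differences, -0.05 to -0.22, none called. After a renewed quantile normalization the difference was -0.28 and called (adjusted p = 0.0155).

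**Figure D2:**
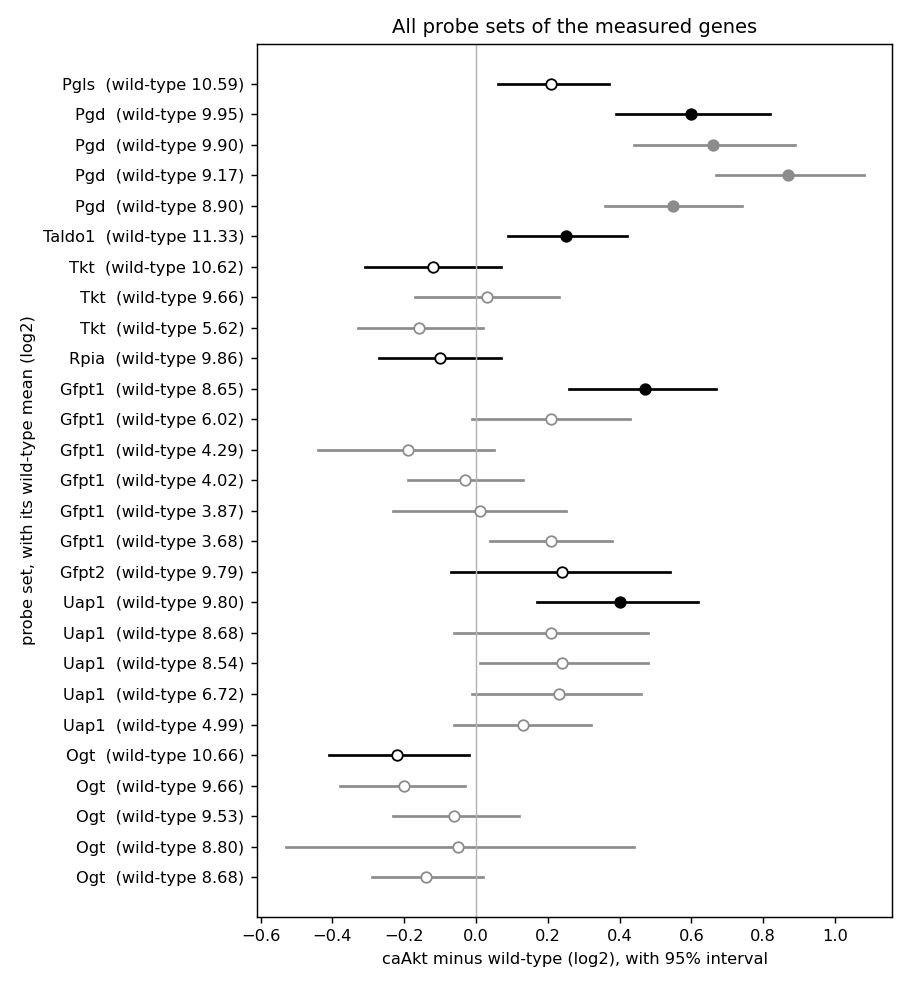
Log2 difference, caAkt minus wild-type (horizontal axis, with 95% interval), of all probe sets of the 9 genes, each named with its wild-type mean; black marks the brightest probe set of a gene and filled points are called over all probe sets. The 4 probe sets of Pgd agree at 0.55 to 0.87, those of Ogt all lie below 0, and the dim ones of Gfpt1 scatter around 0.

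The steps between Gfpt1 and Uap1, and the enzymes that salvage or break down amino sugars, were compared through a list of 9 further genes, all measured. Of these, 5 rose and 1 fell, with a median log2 difference of 0.33. The share over all genes, for this list and those that follow, was 16.1% called higher and 12.4% lower. Pgm3, the mutase of the pathway, rose by 0.50 ± 0.08 (adjusted p = 0.00176, limma), with wild-type values of 7.13 to 7.18 and a caAkt mean of 7.65 ± 0.14 (SD, n = 3). Gnpnat1, the acetyltransferase before it, had a difference of 0.23 ± 0.12 (adjusted p = 0.188) and overlapping groups, and is named outside the naming rule, its value being known. Along the route to UDP-GlcNAc, Gfpt1, Pgm3 and Uap1 were thus called higher, while Gfpt2 and Gnpnat1 were not called. Pgm3 kept its call in all 13 alternatives, Gfpt1 in 12 and Uap1 in 9. The confidence intervals of Gnpnat1 (-0.04 to 0.51) and Gfpt2 (-0.06 to 0.54) held the differences of Gfpt1 (0.47), Pgm3 (0.50) and Uap1 (0.40). A smaller change of Gnpnat1 or Gfpt2 than of the called genes was therefore not shown. Uap1l1, a relative of Uap1, had the largest difference of the list, 0.85 ± 0.08 (adjusted p = 6.48e-05), from 8.01, 8.26 and 8.17 to 8.96, 8.98 and 9.05; the mean of its 2 probe sets gave 0.48 and was still called.

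In the salvage direction, the kinase Nagk rose by 0.37 ± 0.07 (adjusted p = 0.00425, limma). Renbp, an epimerase that takes N-acetylmannosamine to N-acetylglucosamine, rose by 0.53 ± 0.06 (adjusted p = 0.000310). The deacetylase Amdhd2, which undoes the step of Gnpnat1, rose by 0.33 ± 0.07 (adjusted p = 0.00589). Nagk was not called at its plain probe set (0.14). Oga, which removes the sugar that Ogt adds, fell from 11.77, 11.70 and 11.61 to 11.45, 11.44 and 11.30, with no overlap. Its log2 difference was -0.30 ± 0.08 (adjusted p = 0.0182), so both enzymes that cycle O-GlcNAc had negative differences and only Oga was called. The call of Oga was lost on dropping wild-type replicate 1, wild-type replicate 2 or caAkt replicate 3, and the mean of its 6 probe sets gave -0.08 and was not called.

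Among 19 genes listed as carrying or using UDP-GlcNAc, 4 rose and 0 fell, with a median of 0.10. Pofut1 is among those that rose, but it transfers fucose, so the count is not of UDP-GlcNAc users alone. Alg14, which with Alg13 adds the second sugar of the N-glycan precursor, rose by 0.49 ± 0.09, the Golgi transferase Mgat2 by 0.44 ± 0.10, the O-fucosyltransferase Pofut1 by 0.40 ± 0.09 and B3gnt2, which extends lactosamine chains, by 0.35 ± 0.08 (adjusted p 0.00273 to 0.0125, limma). The mean of the 3 probe sets of Pofut1 gave 0.22 and was not called, and B3gnt2 was not called without caAkt replicate 3 (adjusted p = 0.0505). Gne, the entry to sialic acid, stood at 0.24 (adjusted p = 0.0553) and the hyaluronan synthase Has3 at -0.31 (adjusted p = 0.0513), neither called, though Gne was called in 2 and Has3 in 5 of the 13 alternatives.

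Beyond the members, 14 genes of the pentose phosphate branch and of ribose use were measured, of which 1 rose and 3 fell, with a median of 0.00. Over all genes 28.5% were called in either direction, a share close to that of these 14. The synthetases that activate ribose 5-phosphate for nucleotides fell. Prps2 went from 10.08, 10.11 and 9.80 to 9.27, 9.25 and 9.24 (log2 difference -0.74 ± 0.09, adjusted p = 0.000307, limma) and Prps1 from 10.52, 10.41 and 10.19 to 9.99, 9.86 and 9.90 (-0.46 ± 0.09, adjusted p = 0.00554), both without overlap and called in all 13 alternatives. The ribokinase Rbks was lower by brightest probe set (-0.32, adjusted p = 0.0236), but at 0.07 at its plain probe set, and it kept its call in 7 of 13 alternatives. The deoxyribose phosphate aldolase Dera rose by 0.36 ± 0.06 (adjusted p = 0.00271), and the mean of its 2 probe sets gave 0.11 and was not called. Tigar, a phosphatase that favours the pentose phosphate branch, stood at -0.17 and was not called (adjusted p = 0.0848). It was called after a renewed quantile normalization (adjusted p = 0.0246), and the mean of its 3 probe sets gave 0.03. Rpe, the epimerase beside Rpia, stood at 0.29 and was not called (adjusted p = 0.110), except without caAkt replicate 2 (adjusted p = 0.0229).

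Other genes listed as making or using NADPH went both ways: of 18 measured, 7 rose and 5 fell, with a median of 0.06. Those that fell were Nnt, the mitochondrial transhydrogenase (-1.41 ± 0.08), the mitochondrial dehydrogenase Idh2 (-1.34 ± 0.10), the mitochondrial NAD kinase Nadk2 (-0.95 ± 0.08), and, named with their values known, the mitochondrial malic enzyme Me3 (-0.51) and the cytosolic dehydrogenase Idh1 (-0.51), with adjusted p of 3.33e-06 to 0.00276 (limma). Idh2 gave -0.31 at its plain probe set, still called. Nnt went from 13.75, 13.66 and 13.53 to 12.26, 12.22 and 12.24. The largest rise of the list was that of the NADPH oxidase Nox4, from 5.34, 5.48 and 4.88 to 7.92, 8.35 and 8.62 (adjusted p = 7.45e-06), followed by Mthfd2, a mitochondrial folate enzyme (1.69 ± 0.13, adjusted p = 2.31e-05; 2.47 as the mean of its 2 probe sets), and by Cybb, the oxidase of phagocytes (1.64 ± 0.15), beside the macrophage markers given above. Me2, another mitochondrial malic enzyme, likewise named with its value known, rose by 0.49 (adjusted p = 0.00138), so the malic enzymes Me2 and Me3 were called in opposite directions. Both Me2 and Mthfd2 work mainly with NAD, whereas Me3 works with NADP.

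NRF2 is a factor known to drive Pgd, Taldo1 and Tkt in other tissues. Of 12 measured genes of its pathway, 4 rose and 1 fell, with a median of 0.11. Srxn1, which repairs peroxiredoxins, rose by 1.26 ± 0.08, Hmox1 by 1.01 ± 0.11, Txnrd1, a reductase that uses NADPH, by 0.85 ± 0.09 and Gclm, a subunit of glutathione synthesis, by 0.45 ± 0.09, while the transferase Gstm1 fell by 0.89 ± 0.09 (adjusted p 7.26e-06 to 0.00505, limma). The means over probe sets were lower for Srxn1 (0.73) and Txnrd1 (0.52), both called. Me1 (0.23, adjusted p = 0.109) was not called, and Nfe2l2, which encodes NRF2 itself and is named with its value known, stood at -0.07, but at -0.26 and called lower as the mean of its 2 probe sets (adjusted p = 0.0496). Gclc, the other subunit of glutathione synthesis, also outside the naming rule, stood at 0.08 and was not called, but was called higher at its plain probe set (0.55) and as the mean of its 2 probe sets (0.31). Among 12 genes around the supply and use of the glucose and fructose phosphates, 4 rose and 4 fell, with a median of 0.04. Those that rose were Slc2a1, Hk1, Pfkl and Pfkp. Those that fell were Slc2a4, Fbp2 and, outside the naming rule, Pfkm and Pfkfb2. The phosphofructokinases Pfkl, Pfkp and Pfkm draw on fructose phosphate rather than supply it. The hexokinase Hk1 went from 11.46, 11.65 and 11.69 to 12.30, 12.32 and 12.26 (adjusted p = 0.000200), and Pfkl, the liver type of phosphofructokinase, from 11.31, 11.50 and 11.65 to 12.19, 12.28 and 12.22, though its plain probe set gave -0.07. Fbp2, the muscle fructose bisphosphatase, went from 9.47, 9.05 and 9.19 to 8.18, 8.17 and 7.92 (adjusted p = 0.000107).

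**Figure D3:**
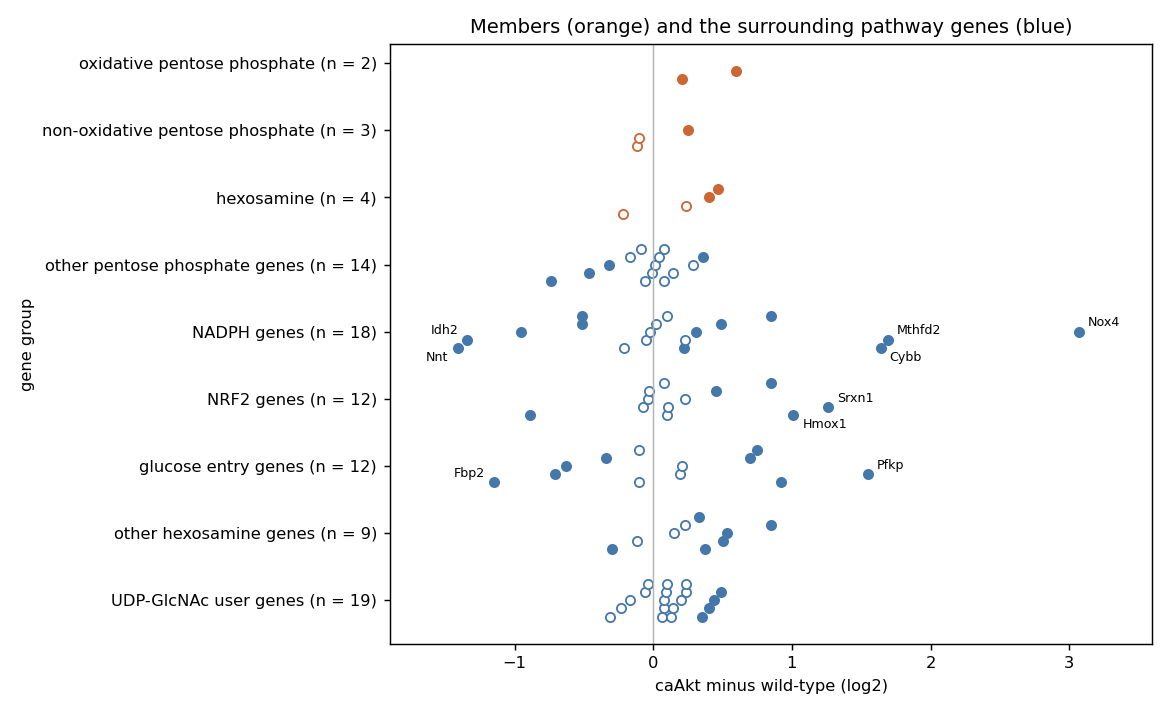
Log2 difference, caAkt minus wild-type (horizontal axis), of the 9 measured genes by branch (orange) and of 6 lists of surrounding genes (blue), 1 point per gene, filled where called over all genes; names are given for differences over 1, and the vertical offset within a row has no meaning. The members lie between -0.22 and 0.60, within the range of the surrounding lists, which runs from -1.41 (Nnt) to 3.07 (Nox4).

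**Figure D4:**
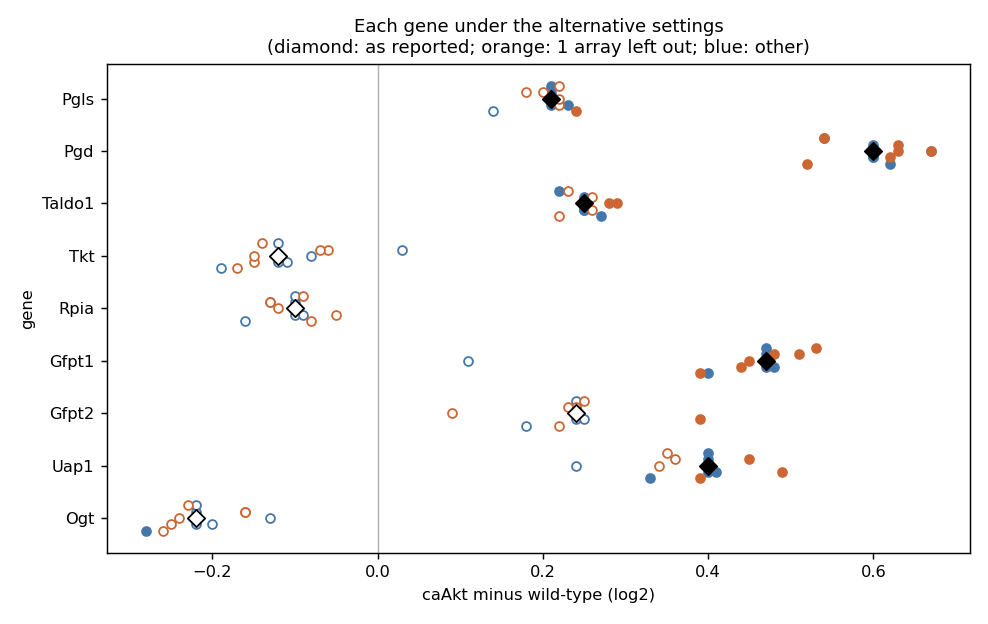
Log2 difference, caAkt minus wild-type (horizontal axis), of each of the 9 genes as reported (black diamond), without each array in turn (orange) and under the other alternatives (blue), filled where called. Pgd is called throughout, Gfpt1 under all but the mean of its probe sets (0.11), and the open points of Pgls, Taldo1 and Uap1 show lost calls at differences that keep their sign.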

How the data were processed

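Expression was measured on 6 short-oligonucleotide arrays, 3 wild-type and 3 caAkt. Per the labels, total ventricular RNA was taken up in Trizol, cleaned with an RNEasy kit and labelled with biotin. The deposited table holds log2 values made by the authors with RMA in the R package affy, per the submitters' processing notes, with the versions not given in the sources used here. RMA makes array distributions alike, so values are relative to the bulk of genes.

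Of 45101 probe sets, 64 were controls, 34945 had 1 gene symbol, 932 several and 9160 none in the platform annotation. Gene IDs of 34741 were found in the RefSeq table of GRCm38.p6, which changed 0 symbols. caAkt was set against wild-type in limma 3.58.1 under R 4.3.3 (lmFit, eBayes, genotype as the term, 4 residual degrees of freedom, two-sided), with Benjamini-Hochberg adjustment over 18193 genes and a call at an adjusted p under 0.05. Other probe sets come from a fit of 45037 probe sets. The fit was tested on simulated data. Members, gene lists and motifs were chosen with earlier results of these data known. Text names all members and, per list, up to 6 genes with the smallest p and any with a log2 difference over 1; others are marked. Alternatives were trend and robust eBayes, the mean of probe sets, plain probe sets (IDs not ending in _x_at, _s_at or _a_at), a filter on dim probe sets, a renewed quantile normalization, median centring, the replicate number as a block, and each array left out. The number of arrays limits the precision. Promoter windows are RefSeq's, with 9 of 9 measured genes matched.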

Additional observations from a re-analysis of the deposited data

How the results depend on the processing

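Of 115 values of single members under the alternatives, 96 kept their direction and their side of the threshold and 1 turned its sign: Tkt, at 0.03 with plain probe sets. The count of members called was 3, all higher, with the mean of probe sets or with plain probe sets (7 measured), and 2 to 4 without single arrays. After a renewed quantile normalization 1 member (Ogt) was lower, 4 were higher, and 49.6% of all calls were higher, against 56.5% as reported and 59.7% with median centring. With the mean of probe sets, the other pentose phosphate genes called were 2, and Gfpt2 minus Gfpt1 turned to 0.12; without single arrays it was -0.36 to -0.05. The cause of these changes was not tested. The total called over all genes, and over each of the other lists, stayed within 1.5 times. Counts in 1 direction moved more. With plain probe sets, 2 glucose entry genes rose in place of 4 (11 measured) and 3 other hexosamine genes in place of 5 (8 measured). Hk1 and Renbp have no plain probe set and so dropped out unmeasured, while Pfkl and Nagk were measured there and not called. With the mean of probe sets, 2 NRF2 genes fell in place of 1. Counts of 0 to 2 in 1 direction moved by 1 gene in the other hexosamine, other pentose phosphate and UDP-GlcNAc user lists as well. Same-numbered arrays are known to share only a number, and whether they share a batch is not known. Their correlations of deviations were 0.27, 0.03 and -0.12, and those of pairs with unlike numbers were -0.27 to 0.23. With the replicate number as a block, 5141 genes were called in place of 5183, and 4 members, as Pgls was not called (adjusted p = 0.0635). With 3 arrays a group, log2 differences near 0.2 lay at the limit of what was called.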
